A study of Mus musculus with 6 samples.

Results

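A set of 10 immediate-early transcription factor genes was followed in blood stem and progenitor cells: Egr1, Egr2 and Egr3 of the EGR family, Fos, Fosb and Fosl2 of the FOS family, Jun, Junb and Jund of the JUN family, and Atf3. They were taken by symbol from the deposited gene count table, where all 10 were found once among 54532 genes, and all 10 passed the filter on low counts. The cells were HSPCs (haematopoietic stem and progenitor cells) from mouse bone marrow, labelled aged, of wild-type genotype and the C57BL/6 strain. RNA was taken from cultured cells in 6 libraries, 3 from cells given vehicle and 3 from cells given uridine, a nucleoside used to make pyrimidine nucleotides. Both groups share the strain, the wild-type genotype and the label aged, while age, dose, duration and the surface markers used to isolate the cells are not given in the labels.

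Immediate-early genes are transcribed within minutes of a growth factor, cytokine or stress signal, without new protein synthesis, and their short-lived mRNAs fade soon after. MAP kinase cascades reach them through serum response factor and its partners and through CREB-type factors. EGR proteins are zinc-finger factors that bind GC-rich sites. FOS proteins pair through a leucine zipper with JUN proteins to form AP-1, JUN proteins can also pair with each other, and ATF3 joins the same network. In mouse stem cells Egr1 is known for holding HSCs quiescent and in the marrow niche, and in myeloid progenitors EGR and AP-1 factors take part in monocyte differentiation.

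Libraries held 16109265 to 18638627 counts, of which 6562 to 7716 fell on the 10 genes. Levels are given as CPM (counts brought to one library size by way of TMM normalization factors), and a count of 3 corresponded to 0.161 to 0.186 CPM, which covers counting error only. The progenitor markers Kit (365 ± 1.64 CPM in vehicle, SD, n = 3) and Cd34 (620 ± 15 CPM) were abundant. The T-cell gene Cd3e and the globin gene Hba-a1 were at or near 0, but other lineage markers were well counted. Summed in vehicle, HSPC markers were at 2118 to 2141 CPM and megakaryocyte and erythroid markers at 2774 to 2833 CPM. Neutrophil markers were at 2983 to 3048 CPM, monocyte markers at 576 to 595 CPM and lymphoid markers at 67.5 to 72.5 CPM. Mitochondrial genes took 1.795% to 1.81% of counts in vehicle and 1.95% to 1.99% with uridine, and the part of this gap in the results was not tested. No label ties replicates to separate mice or cultures, so p-values measure only the spread among these 6 samples, and that spread may be technical.

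With uridine, 4 of the 10 genes rose, 1 fell and 5 were not called at an adjusted p under 0.05 (edgeR's quasi-likelihood test, Benjamini-Hochberg adjustment over 14706 genes). Egr1, Fos, Fosb and Atf3 rose and Fosl2 fell. Over all genes tested 7.18% rose, 10.1% fell and 17.3% changed in either direction. The vehicle and uridine values did not overlap for the same 5 genes that were called, against 30.8% of all genes. The changes were modest: from a 1.23-fold rise of Fos to a 1.91-fold rise of Atf3, with Fosl2 at 0.681 of its vehicle level. In a test against a fixed 1.5-fold change none of the 10 was called (edgeR's glmTreat, 0 rising and 0 falling, each adjusted p 1). The 3 JUN genes stayed within 0.10 of no change on the log2 scale, none of them called.

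**Figure D1:**
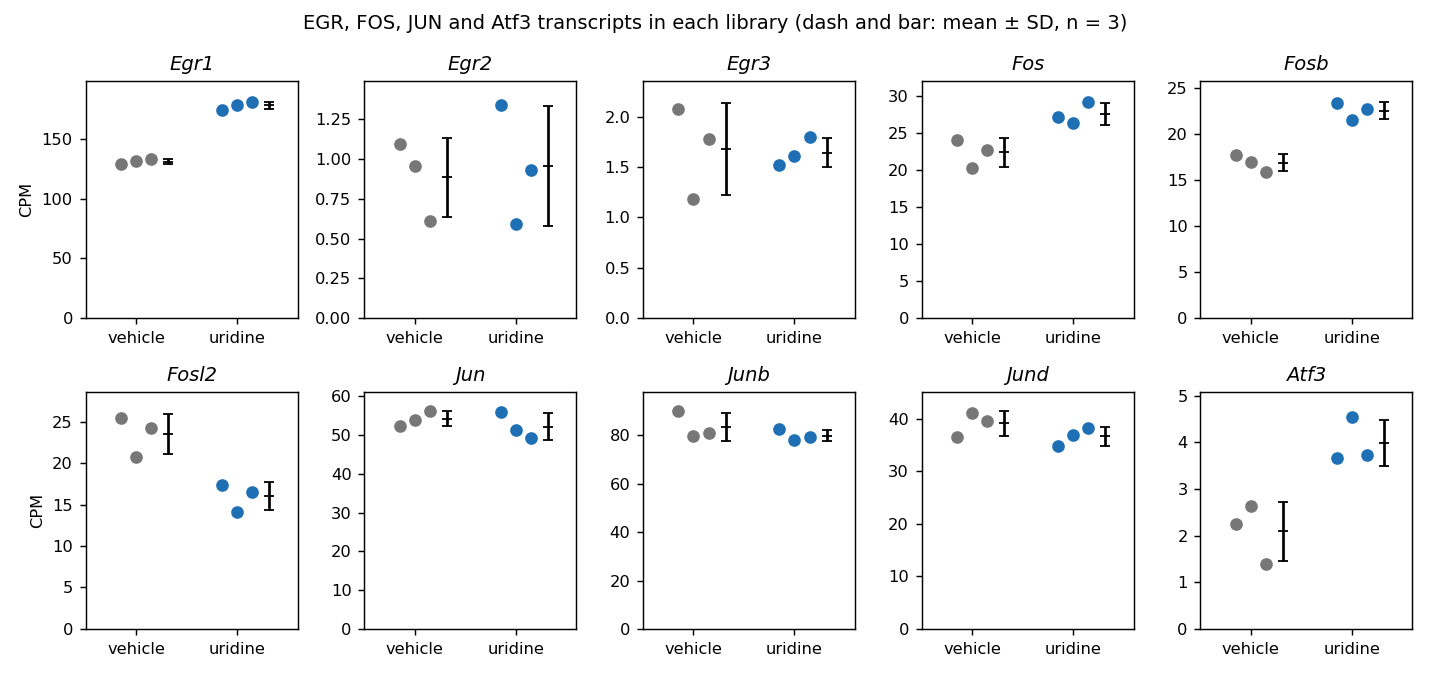
CPM of the 10 genes in each library, with vehicle in grey and uridine in blue, and a dash and bar for the mean ± SD of 3 libraries; every axis starts at 0. The groups are apart for Egr1, Fos, Fosb, Fosl2 and Atf3 and overlap for Egr2, Egr3, Jun, Junb and Jund.

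Egr1 carried the EGR signal. Egr1 (ENSMUSG00000038418; chromosome 18, 34859823 to 34864984 in mm10, 2 exons) was at 129, 131 and 133 CPM in the vehicle libraries and at 174, 179 and 180.5 CPM in the uridine libraries. Every uridine library lay above every vehicle library, and the difference of the means, from 131 ± 2.10 to 178 ± 3.15 CPM (SD, n = 3), was far larger than the SD of either group. The log2 fold change was 0.44 ± 0.033 (SE; adjusted p = 1.65e-18), and it stayed between 0.43 and 0.46 under all alternatives run.

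Egr2, known in mouse for hindbrain and Schwann cell development and for T-cell tolerance, was at 1.09, 0.955 and 0.612 CPM in vehicle replicates 1 to 3 and at 1.34, 0.589 and 0.930 CPM in uridine replicates 1 to 3. Egr3, a close relative that acts with it in lymphocytes, was at 2.07, 1.18 and 1.78 CPM and at 1.52, 1.61 and 1.80 CPM in the same order. The groups overlapped for both genes. Their 95% intervals, from -0.72 to 0.92 for Egr2 and from -0.66 to 0.59 for Egr3 on the log2 scale, contain changes as large as that of Egr1, so a difference of that size was not detectable at 11 to 36 counts per library. Per base of transcript, Egr1 made up 97.8% ± 0.46 of the summed EGR level in vehicle and 98.4% ± 0.27 with uridine (TPM, which scales counts for gene length and then to a common total; SD, n = 3).

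The FOS genes did not move together. Fos, the classic serum-induced partner of JUN proteins, was at 24.0, 20.3 and 22.7 CPM in vehicle and at 27.1, 26.4 and 29.2 CPM with uridine (log2 fold change 0.30 ± 0.082, adjusted p = 0.00499). The lowest uridine library exceeded the highest vehicle library by a small margin, and the call was lost without vehicle replicate 2 (0.24, adjusted p = 0.0656). Fosb, whose product shares the zipper and whose spliced form deltaFosB is known for its stability in brain, was at 17.8, 17.0 and 15.9 CPM in vehicle and at 23.4, 21.5 and 22.7 CPM with uridine. Its groups were clearly apart, with a log2 fold change of 0.41 ± 0.090 (adjusted p = 3.27e-04) that no single left-out library ended.

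Fosl2 encodes FRA-2, a FOS-family protein without the strong transactivation domain of FOS, known in mouse for roles in bone and skin. It went the other way, from 25.4, 20.8 and 24.2 CPM in vehicle to 17.3, 14.1 and 16.6 CPM with uridine. All 3 uridine libraries lay below all 3 vehicle libraries. The log2 fold change was -0.55 ± 0.094 (adjusted p = 3.96e-06) and ranged from -0.64 to -0.47 over the alternatives.

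These opposite changes shifted the makeup of FOS-family mRNA, a quantity measured within each library and so free of scaling between libraries. Fosl2 took 16.8%, 15.9% and 17.0% of the summed FOS-family TPM in vehicle and 10.5%, 9.07% and 9.64% with uridine. Fos took 64.9% ± 0.90 in vehicle and 69.0% ± 1.24 with uridine, and Fosb 18.6% ± 1.47 and 21.3% ± 0.73 (SD, n = 3). For each of the 3 genes the shares in the groups did not overlap. With lengths of the longest annotated coding transcript in place of the table's gene lengths, the Fosl2 share was 19.2% ± 0.75 in vehicle and 11.4% ± 0.79 with uridine. No test was run on these shares.

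**Figure D2:**
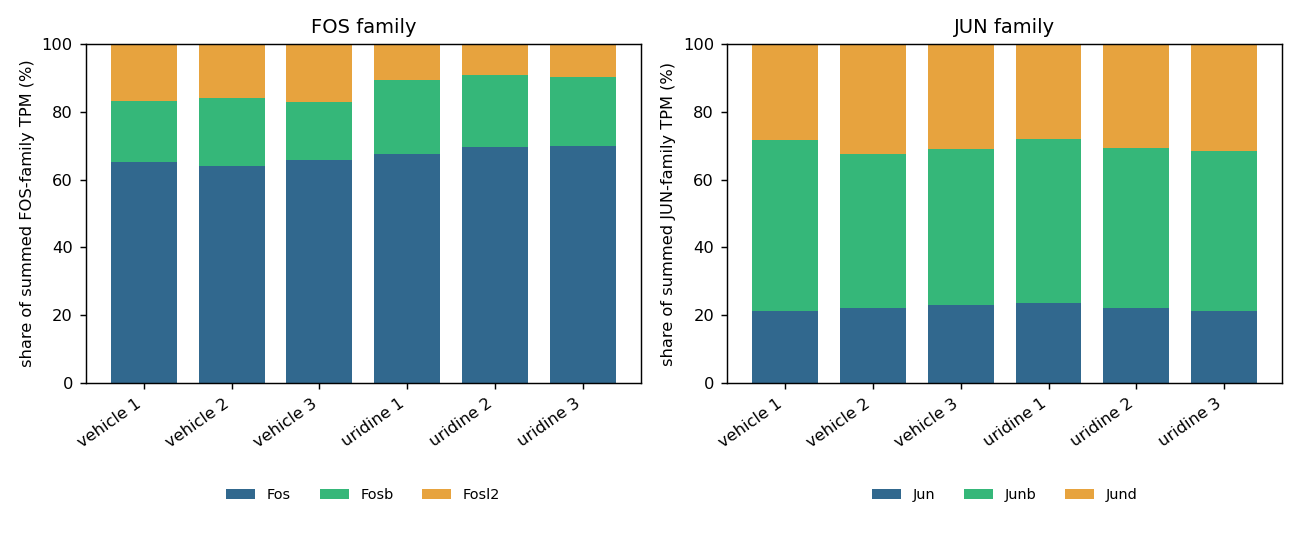
Share of each gene in the summed TPM of its family, in percent, as stacked bars for the 6 libraries; the left panel is the FOS family and the right panel the JUN family. The Fosl2 segment is 15.9% to 17.0% in vehicle and 9.07% to 10.5% with uridine, while the 3 JUN segments overlap between groups.

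Atf3, a stress-inducible bZIP factor that in mouse macrophages restrains cytokine genes, had the highest fold change of the 10 at a low level. It was at 2.25, 2.64 and 1.39 CPM in vehicle and at 3.68, 4.55 and 3.72 CPM with uridine, that is 25 to 47 counts against 60 to 85. The groups did not overlap (log2 fold change 0.93 ± 0.24, adjusted p = 0.00284), and the estimate ranged from 0.71 to 1.14 over the alternatives. The call was only just kept without vehicle replicate 3 (0.71, adjusted p = 0.0498), and the adjusted p was 0.0323 without uridine replicate 2.

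The promoters of the rising genes Fos, Fosb and Atf3 are shown because these genes rose in the same comparison. RefSeq (GRCm38.p6) gave a start region for 8 of the 10 genes, not for Egr1 and Egr3. Each sequence runs 5′ to 3′ on the gene's strand from 250 to 11 bases before the start, and capitals mark matches to the motifs searched. The windows are chr12:85473640-85473879 (plus strand) for Fos, chr7:19310056-19310295 (minus strand) for Fosb and chr1:191183344-191183583 (minus strand) for Atf3. Both strands were searched for the cyclic AMP response element (CRE) TGACGTCA and for its core TGACG, which the full element contains, for the AP-1 site TGANTCA and for the EGR site GCGNGGGCG. The TATA box TATAAA, the promoter element CCAAT and, by name alone, the CArG box of serum response factor were searched as well.
Fos: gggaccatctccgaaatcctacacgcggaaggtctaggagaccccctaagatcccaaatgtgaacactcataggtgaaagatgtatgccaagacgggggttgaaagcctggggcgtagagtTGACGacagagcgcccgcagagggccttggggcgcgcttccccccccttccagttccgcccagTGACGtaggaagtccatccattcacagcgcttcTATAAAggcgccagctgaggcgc
Fosb: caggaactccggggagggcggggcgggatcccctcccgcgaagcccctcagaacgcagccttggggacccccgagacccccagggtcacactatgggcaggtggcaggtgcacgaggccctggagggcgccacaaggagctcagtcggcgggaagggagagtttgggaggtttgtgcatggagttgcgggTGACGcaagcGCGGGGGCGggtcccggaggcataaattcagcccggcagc
Atf3: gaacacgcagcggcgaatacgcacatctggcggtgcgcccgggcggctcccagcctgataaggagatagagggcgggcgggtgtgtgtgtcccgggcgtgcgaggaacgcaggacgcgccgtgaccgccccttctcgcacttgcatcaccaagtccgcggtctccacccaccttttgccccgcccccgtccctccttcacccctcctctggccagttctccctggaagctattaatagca

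The Fos window held TGACG at -129 to -125 and at -66 to -62 and TATAAA at -33 to -28. The Fosb window held TGACG at nearly the same distance from the start, -60 to -56, followed by an EGR-site match at -50 to -42. No match was found in the Atf3 window, whose start lies inside the span the table gives for the gene, and these letters alone say nothing of any factor. Of 32851 RefSeq start regions, 16.9% held TGACG, 12.1% TATAAA, 4.39% the EGR site, 6.58% the AP-1 site, 1.44% the full CRE, 33% CCAAT and 1.44% a CArG box. Among genes that were not called, the Junb window also held TGACG, at -106 to -102, and the Egr2 window before the start at base 67537870 held a CArG box and TGACG matches. A match describes letters only, not a bound site. The RefSeq window of Fosl2, the gene that fell, lies within an exon of the gene in GENCODE and is not shown. It held an EGR-site match with the same letters as that of Fosb, at -79 to -71.

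**Figure D3:**
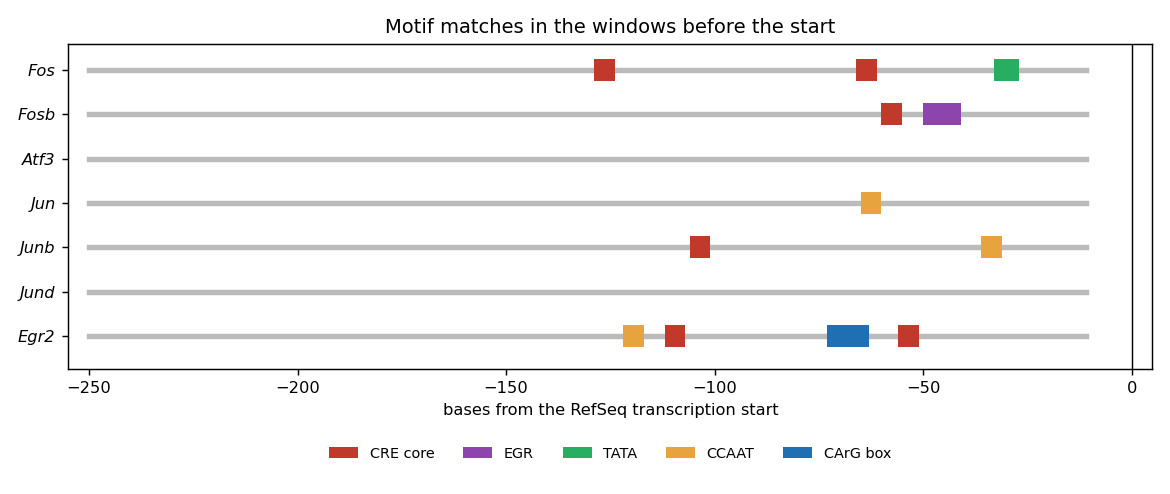
Motif matches, as coloured blocks, along the window from 250 to 11 bases before the RefSeq transcription start of 7 genes; the horizontal axis is distance from the start in bases. Egr2 is drawn for its start at base 67537870. Fos and Fosb both have a TGACG match between 56 and 66 bases before the start, and Atf3 and Jund have no match. The RefSeq start used for Jund, base 70697739, lies upstream of the gene's start in GENCODE, base 70698949. The bases just before that GENCODE start were not searched.

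The JUN genes were not called. Jun, the prototype AP-1 subunit, was at 52.4, 53.8 and 56.3 CPM in vehicle and at 56.0, 51.2 and 49.2 CPM with uridine (log2 fold change -0.055 ± 0.057, adjusted p = 0.595). Junb, which restrains myeloid expansion in mouse, was at 90.2, 79.8 and 80.8 CPM and at 82.5, 78.0 and 79.3 CPM (-0.065 ± 0.046, adjusted p = 0.387). Jund, the most constantly expressed family member in many tissues, was at 36.5, 41.1 and 39.6 CPM and at 34.7, 36.8 and 38.3 CPM (-0.095 ± 0.067, adjusted p = 0.383).

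The groups overlapped for each JUN gene, and the 95% intervals bound a change to between -0.17 and 0.057 for Jun, -0.16 and 0.026 for Junb and -0.23 and 0.037 for Jund on the log2 scale. These intervals leave out a rise as large as that of Egr1, Fos or Fosb. The summed JUN level was 257, 253 and 255 TPM in vehicle and 243, 236 and 239 TPM with uridine, without overlap, but no test was run on the sum. Shares within the family overlapped, Junb being at 47.3% ± 2.80 in vehicle and 47.6% ± 0.64 with uridine. Each of these genes overlaps a neighbour in the table, so some reads may be shared. The antisense RNA Junos overlaps Jun at 4 to 22 counts, the antisense RNA Gm11175, at 0 counts in every library, overlaps Jund, and Prdx2, at 154 CPM in vehicle and 160 CPM with uridine, overlaps Junb at its end. The strand setting used in counting was not stated.

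**Figure D4:**
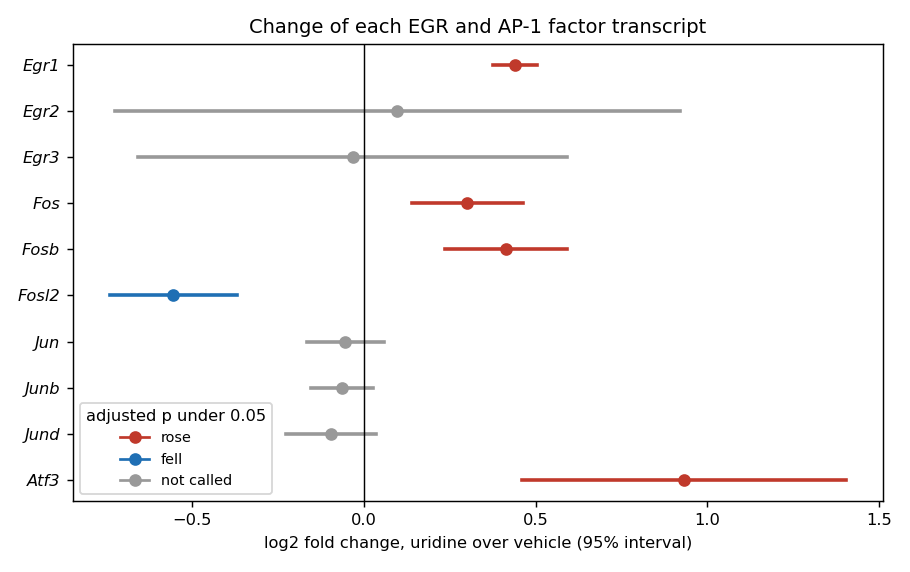
Log2 fold change of uridine over vehicle with its 95% interval for the 10 genes, in red for genes that rose, blue for genes that fell and grey for genes not called. Egr1 has the narrowest interval, from 0.38 to 0.51, and the intervals of Egr2 and Egr3 span 0 widely.

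Ranked per base of transcript in vehicle, Junb stood first with 121 ± 8.04 TPM, followed by Egr1 (97.0 ± 1.76), Jund (77.8 ± 4.79), Jun (56.4 ± 2.14) and Fos (31.5 ± 2.65). Fosb (8.996 ± 0.48) and Fosl2 (8.06 ± 0.82) overlapped, Atf3 was at 3.23 ± 0.98, and Egr3 and Egr2 overlapped at the bottom (1.26 ± 0.34 and 0.867 ± 0.24 TPM, SD, n = 3). With uridine Egr1 (130 ± 2.33 TPM) ranked above Junb (114 ± 3.24 TPM), and Atf3 (6.06 ± 0.75 TPM) overlapped Fosl2 (5.42 ± 0.56 TPM). The place of Egr1 above Junb depended on the length used. The table gives Junb 2301 bases, against 1809 for its longest coding transcript, and with the latter Junb stayed first at 145 ± 4.12 TPM. With lengths of that kind Fosb (14.0 to 15.6 TPM) and Fosl2 (10.6 to 12.9 TPM) did not overlap in vehicle. With uridine Fosl2 (8.02 ± 0.83 TPM) then ranked above Atf3 (6.58 ± 0.82 TPM), though their values still overlapped.

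Nab1 and Nab2 encode corepressors that bind EGR proteins, and Nab2 is itself an EGR1 target. Nab2 was at 10.995, 11.7 and 10.7 CPM in vehicle and at 16.8, 13.7 and 13.8 CPM with uridine. It rose by 0.41 ± 0.11 on the log2 scale (adjusted p = 0.00587), with no overlap between the groups, and the call was lost without uridine replicate 1 (0.31, adjusted p = 0.0953). Nab1 was not called (0.080 ± 0.040, adjusted p = 0.175), and Egr4, with a mean of 0.111 CPM in vehicle, was below the count filter.

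Other bZIP genes that can join AP-1 or related dimers were largely level. Of 12 such genes 10 were tested, 0 rose and 1 fell, with a median log2 fold change of -0.025 against 0.0053 over all genes. The gene that fell was Atf7, a relative of Atf2 (-0.14 ± 0.045, adjusted p = 0.0199). That call ended in 6 alternatives. The adjusted p was 0.0851 and 0.145 when vehicle replicate 2 or 3 was left out, and 0.0513 and 0.0918 when uridine replicate 1 or 2 was. It was 0.0645 by DESeq2's Wald test and 0.195 after the trend on gene length was taken out. Atf2 had a value of -0.12 ± 0.046 (adjusted p = 0.0561) and Fosl1, which encodes FRA-1, one of 0.30 ± 0.17 (adjusted p = 0.242). Batf, Batf2, Jdp2, Maf, Maff, Mafg and Mafk were not called, and Batf3 was below the filter. Of all 34 other tested genes that the table assigns to the bZIP family, 3 rose and 6 fell. Of 426 other C2H2 zinc-finger genes 16 rose and 23 fell, where 7.18% of all genes tested rose and 10.1% fell.

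Of 43 other immediate-early genes tested, 4 rose and 6 fell, with a median of -0.076. Over all genes tested 7.18% rose and 10.1% fell, and these counts lie near those shares. By the smallest p-values they were led by falls of Cebpd (-0.74 ± 0.10, from 19.95 ± 0.29 to 11.97 ± 0.68 CPM), a C/EBP factor of myeloid and acute-phase genes, and of Klf4 (-1.63 ± 0.22, from 5.39 ± 0.87 to 1.74 ± 0.19 CPM), a factor needed for inflammatory monocytes in mouse. Next came rises of Klf10 (0.35 ± 0.063), a TGF-beta-induced gene, and Ppp1r15a (0.31 ± 0.066), which encodes the eIF2alpha phosphatase subunit GADD34. The other calls, named after their values were seen, were rises of Nr4a2 (0.66 ± 0.15) and Bhlhe40 (0.29 ± 0.073) and falls of Nfkbiz (-0.42 ± 0.099), Cebpb (-0.60 ± 0.14), Myc (-0.083 ± 0.028) and Nfil3 (-0.35 ± 0.13). DESeq2's Wald test called 3 of the falls, and Cebpb, Myc and Nfil3 were not among them (adjusted p of 0.0817, 0.107 and 0.144).

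The calls of Myc, whose groups overlapped, and of Nfil3 were marginal: both were also lost with scaling by library size alone (adjusted p of 0.0623 and 0.0505). Over the left-out libraries the counts were 4 to 5 rising and 4 to 8 falling, the lowest without vehicle replicate 3. Without uridine replicate 1 or 2 or vehicle replicate 1 or 3 the adjusted p of Myc was 0.159, 0.246, 0.162 and 0.0658. That of Nfil3 was 0.433 without uridine replicate 2, where the log2 value was -0.18, 0.0777 without uridine replicate 3, and 0.0874, 0.092 and 0.105 without vehicle replicate 1, 2 and 3. Genes commonly read beside Fos and Egr1 were not called: Ier2 (0.11 ± 0.040, adjusted p = 0.0562), Nr4a1 (-0.076 ± 0.14), Dusp1 (0.070 ± 0.10), Zfp36 (0.098 ± 0.055) and Btg2 (0.13 ± 0.058), chosen after their values were seen.

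**Figure D5:**
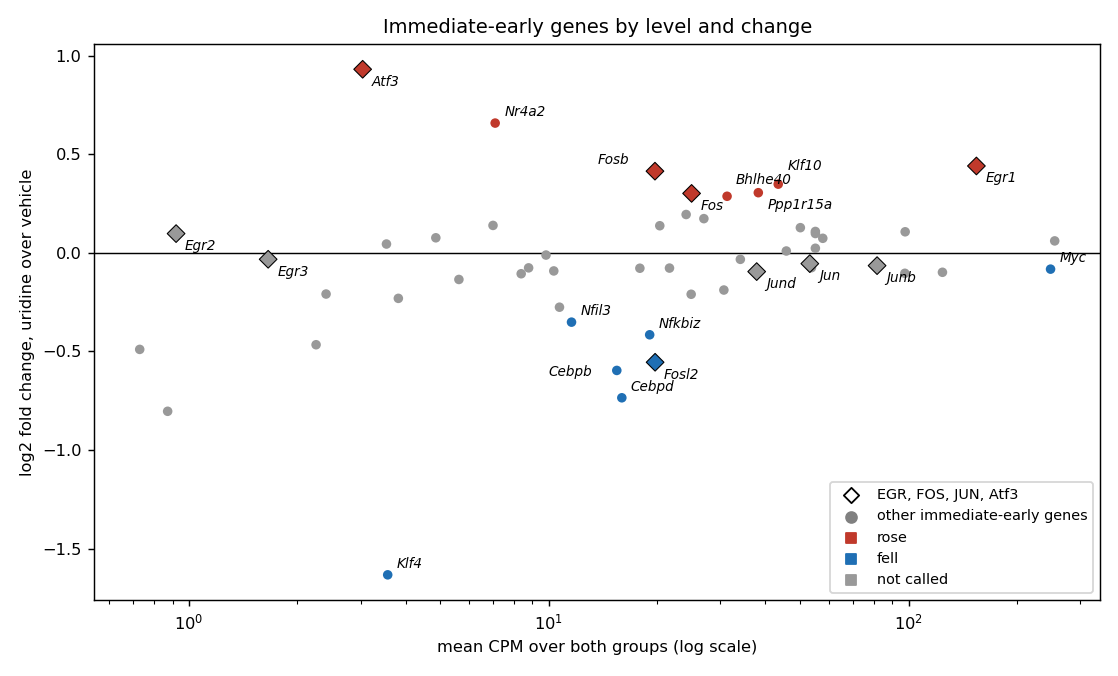
Log2 fold change of uridine over vehicle against mean CPM on a log axis, for the 10 factors (diamonds) and 43 other immediate-early genes (circles), coloured by call. Rising points include Egr1, Fos, Fosb, Atf3, Nr4a2, Klf10, Ppp1r15a and Bhlhe40, and the lowest point is Klf4 at -1.63.

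Fosl2, Klf4, Cebpb and Cebpd are also expressed in myeloid cells, and markers of those cells moved in the same libraries. Of 12 monocyte markers 11 were tested and 10 fell, with a median of -1.28, against 10.1% falling and 7.18% rising over all genes tested. Their summed level was 576 to 595 CPM in vehicle and 271 to 274.5 CPM with uridine. The monocyte receptor genes Csf1r (-1.65 ± 0.065) and Ccr2 (-2.03 ± 0.080), the monocyte antigen gene Ly6c2 (-1.35 ± 0.049) and the lysozyme gene Lyz2 (-0.87 ± 0.033) led by p-value. No monocyte marker was at 0 throughout. Of 12 neutrophil markers 10 fell and 1 rose, with a median of -0.73 and a summed level of 2983 to 3048 CPM in vehicle and 1639 to 1678 CPM with uridine, led by p-value by Mpo, Prtn3, Elane and Ctsg, which encode primary granule proteins of neutrophil precursors. The one that rose was Ltf (1.13 ± 0.19, from 2.94 ± 0.49 to 6.45 ± 0.98 CPM), a gene of later granules. Other later-granule genes of this list, chosen after their values were seen, fell, so Ltf does not stand for that class. They were Mmp8 (-2.34) and Ngp (-0.44 to -0.28 over the alternatives, its call lost in 4). Whether these markers have a part in the change of Fosl2 was not tested. In bulk RNA fewer cells of a type and less RNA per cell cannot be told apart.

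Some markers of stem and progenitor cells also rose. Of 12 HSPC markers 7 rose, 0 fell and 5 were not called, against 7.18% rising and 10.1% falling over all genes tested. Without vehicle replicate 2, without uridine replicate 2 or with no count filter, 5 rose. The median was 0.11, against 0.44 for Egr1. The summed level of these markers was 2118 to 2141 CPM in vehicle and 2260 to 2301 CPM with uridine. By p-value they were led by Gata2 (0.22 ± 0.026), Hlf (0.37 ± 0.045), Tal1 (0.18 ± 0.027) and Meis1 (0.16 ± 0.033), all transcription factor genes of early blood cells. Of 10 mast cell and basophil markers 5 rose and 2 fell, led by p-value by rises of the protease genes Prss34 (1.30 ± 0.13) and Cma1 (0.91 ± 0.17), a fall of the basophil protease gene Mcpt8 (-0.36 ± 0.069) and a rise of Gata1 (0.24 ± 0.067). The histidine decarboxylase gene Hdc also fell (-0.28 ± 0.081). Without uridine replicate 1, 2 of these rose and 1 fell. Of 7 tested megakaryocyte and erythroid markers 4 rose and 2 fell. The platelet genes Pf4 (0.28 ± 0.019) and Itga2b (0.16 ± 0.017) rose, while Ppbp (-0.15 ± 0.026) and Vwf (-0.091 ± 0.020), also platelet genes, fell, Vwf losing its call after removal of the trend on gene length (adjusted p = 0.782). Of 7 tested lymphoid markers 0 rose and 2 fell, Dntt and Nkg7, and of 4 tested stromal and endothelial markers 0 were called. The part of any of these in the change of Egr1 was not tested.

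Among lists of genes that carry signals to these factors, falls were most frequent for serum response factor and CREB regulators. The shares over all genes tested were 7.18% rising and 10.1% falling. Of 18 serum response factor and CREB regulators 0 rose and 7 fell, with a median of -0.087. They included the SRF partner Elk4 (-0.25 ± 0.039), Mef2d (-0.25 ± 0.030) and the acetyltransferase genes Crebbp (-0.30 ± 0.043) and Ep300 (-0.16 ± 0.029), while Srf itself was at 0.015 ± 0.038 (adjusted p = 0.858). After removal of the trend on gene length 5 of these genes fell and 1 rose. Of 18 genes of the ERK cascade 1 rose and 3 fell, with a median of 0.013. Those that fell encode the RSK kinases downstream of ERK: Rps6ka3 (-0.18 ± 0.029), Rps6ka2 (-1.03 ± 0.19) and Rps6ka1 (-0.14 ± 0.029). Map2k2 rose (0.14 ± 0.035), and the ERK gene Mapk3 (0.0038 ± 0.045) was not called.

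Of 14 tested JNK and p38 genes 0 rose and 3 fell, with a median of 0.018, beside the same 7.18% and 10.1% over all genes. Those that fell were Mapkapk2, a p38-activated kinase that stabilises inflammatory mRNAs (-0.39 ± 0.025), Map3k1 (-0.39 ± 0.061) and Mapkapk3 (-0.14 ± 0.030). Without vehicle replicate 3 or uridine replicate 1, and when scaled by library size alone, 2 genes of this list rose. Of 14 tested feedback genes of the MAP kinases 1 rose and 1 fell, Dusp4 (0.16 ± 0.046) and Dusp7 (-0.24 ± 0.065). The call of Dusp4 was lost without uridine replicate 1 (adjusted p = 0.051) and that of Dusp7 without vehicle replicate 1 (-0.15, adjusted p = 0.153). Transcript levels of kinases say nothing of their activity.

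Textbook targets of EGR proteins did not follow a single direction, while most of the called AP-1 targets fell. Of 12 tested EGR targets 2 rose and 4 fell, with a median of -0.0036, against 7.18% rising and 10.1% falling over all genes. Nab2 was among those that rose, and the matrix genes Thbs1 (-0.38 ± 0.029) and Fn1 (-0.64 ± 0.14) and the adhesion gene Icam1 (-0.46 ± 0.096) were among those that fell. The other gene that rose was Vegfa (0.26 ± 0.095), which was not called when vehicle replicate 1 or 3 or uridine replicate 2 was left out (adjusted p of 0.113, 0.233 and 0.358). Nor was Vegfa called by DESeq2's Wald test (adjusted p = 0.136), by limma-voom (0.0597) or with no count filter (0.0586). The cell cycle inhibitor gene Cdkn1a (-0.078 ± 0.036, adjusted p = 0.135) and Bmi1 (0.029 ± 0.048, adjusted p = 0.763), which are linked to Egr1 in mouse HSCs, were not called.

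Of 12 tested AP-1 targets 1 rose and 6 fell, against 7.18% and 10.1% of all genes tested, with a median of -0.19. They were led by the macrophage elastase gene Mmp12 (-2.07 ± 0.21), the adhesion receptor gene Cd44 (-0.17 ± 0.027), the collagenase gene Mmp13 and the osteopontin gene Spp1 (-0.53 ± 0.11). Mmp13 had 10, 12 and 13 counts in vehicle and 0 in each uridine library, at least 11.4-fold lower against a floor of 3 counts over the group. The 1 gene that rose, Mt1 (0.31 ± 0.11), was not called by DESeq2's Wald test (adjusted p = 0.152) or when uridine replicate 1 or 2 or vehicle replicate 1 or 3 was left out (adjusted p from 0.123 to 0.382). The monocyte and neutrophil marker values given above come from the same libraries.

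Atf3 is also a target of ATF4 in the integrated stress response. Of 15 genes of that response 3 rose and 1 fell, with a median of 0.074, beside 7.18% rising and 10.1% falling over all genes. Atf4 (0.12 ± 0.029, adjusted p = 0.00113), Ppp1r15a and the serine synthesis gene Psat1 (0.074 ± 0.026) rose, and Phgdh of the same serine pathway fell (-0.15 ± 0.026). The call of Psat1 ended when any of 4 libraries was left out, vehicle replicates 2 and 3 and uridine replicates 1 and 2 (adjusted p from 0.0676 to 0.214). It was also lost by DESeq2's Wald test (adjusted p = 0.0998) and with no count filter (0.0815). Ddit3, which encodes CHOP, was at 9.08 ± 1.04 and 9.57 ± 1.18 CPM (0.073 ± 0.13, adjusted p = 0.79), and Chac1, Trib3 and Asns were not called.

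Heat-shock genes, only some of which rise with Fos and Jun when cells are stressed during handling, were mixed. Of 13 tested 3 rose and 3 fell, with a median of -0.031, where 7.18% of all genes tested rose and 10.1% fell. The ER chaperone gene Hspa5 (-0.13 ± 0.017) and Hsp90aa1 (-0.070 ± 0.017) fell, and Hspe1 (0.12 ± 0.034) and Hspa8 (0.040 ± 0.013) rose. Without vehicle replicate 1 the count of those that rose was 0, and without uridine replicate 2 or 3 it was 1. Of the strongly inducible members, named after their values were seen, Hspa1b fell (-0.57 ± 0.21, adjusted p = 0.0418), a call that held when vehicle replicate 3 was left out and was lost when any other library was. With all 6 libraries that call was also lost by DESeq2's Wald test (adjusted p = 0.103) and by limma-voom (0.0694). It was lost as well with no count filter (0.0654) and with replicate number as a block (0.0571). Hspa1a and Hspb1 were at a mean of 0.827 and 0.169 CPM in vehicle.

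Genes next to the factors were read as a check of position. Among the nearest tested protein-coding genes on either side, Tmed10 (-0.14 ± 0.032), 99043 bases from Fos, fell. Vasp (0.11 ± 0.027) near Fosb, Rnaseh2a (0.18 ± 0.052) near Junb and Reep2 (0.21 ± 0.073) near Egr1 rose. Nrbf2 (0.33 ± 0.10), 250170 bases from Egr2, also rose. Neither neighbour of Fosl2, Babam2 (-0.092 ± 0.067) and Ppp1cb (-0.016 ± 0.027), nor of Atf3, Nsl1 (-0.13 ± 0.059) and Nenf (0.12 ± 0.11), was called. The other nearest genes, Etf1, Ado, Rhobtb2, Bin3, Jdp2, Ercc1, Mysm1, Fggy, Hook2, Lsm4 and Pde4c, were not called. Over all genes tested 17.3% changed in either direction. Single left-out libraries ended the calls of Reep2 (4 libraries, adjusted p from 0.0755 to 0.186), Nrbf2 (3 libraries, 0.0649 to 0.0972), Rnaseh2a without vehicle replicate 2 (0.0747) and Tmed10 without vehicle replicate 3 (0.067). Reep2 was also not called by DESeq2's Wald test (adjusted p = 0.0854).

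The genes whose pattern over the 6 libraries lay nearest to that of Egr1, among 6497 candidates (protein-coding, mean log2 CPM 5 or more), were Emid1, Slc14a1, Tomm7, Grik5 and Tmem40. Their root mean square differences from Egr1 were 0.049 to 0.063 on the centred log2 scale, and their own log2 fold changes 0.33 to 0.39. Nearest to Fos were Sept8, whose symbol the deposited table holds as a date and which was named by its identifier, 1810037I17Rik, Rabgef1, Trip6 and Ndufa13, at 0.033 to 0.042. No JUN gene was called, so no such search was made for that family.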

How the data were processed

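Whole-number read counts per gene in 6 libraries, 3 per group, were used as the authors deposited them, with gene positions, biotypes and lengths from the same table. The submitters' processing notes name HISAT2 2.0.5 and the build mm10, with no role given. The counting program, annotation release, strand setting and handling of multi-mapping reads: not given in the sources used here. Counts were filtered with filterByExpr, scaled with TMM factors and tested with edgeR 4.0.16's quasi-likelihood F test (R 4.3.3), treatment as the only term, adjusted over 14706 genes (Benjamini-Hochberg). SE is the coefficient over the square root of F. CPM used the filtered library totals times the TMM factors. TPM used the table's gene lengths. Exons came from GENCODE vM21, whose positions match those of the table for all 10 genes, and start regions from RefSeq.

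The 10 genes and the 18 gene lists (268 symbols, 264 in the table) were chosen with earlier results of these data known. Genes named from a list are up to 4 called genes with the smallest p, and all genes of the EGR partner and other AP-1 lists; any other is said to be chosen after its values were seen, apart from members of a list named as not called. Some genes that this rule would name are not reported here. The fit was tested on simulated data with known changes. Alternatives were DESeq2 1.42.0 (size factors, Wald test), limma 3.58.1 voom, other scaling and filters, glmTreat against a 1.5-fold change, a block for replicate number, protein-coding nuclear genes, each library left out and, added after the data were seen, removal of the length trend. Replicates were compared by chi-square over genes, at 2.28 to 2.52 per gene, more than sampling noise, so no library was counted as a duplicate.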

Additional observations from a re-analysis of the deposited data

How the results depend on the processing

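The counts of 4 rising and 1 falling factor genes held under each alternative run except 2. In the test against a 1.5-fold change 0 rose and 0 fell, with 2 rising and 141 falling over all genes (386 genes at an unadjusted p under 0.05), and when libraries were left out 1 at a time the rising count was 3 to 4 and the falling count 1. Over all genes 1056 rose and 1488 fell; DESeq2's Wald test gave 688 rising, and leaving out a library gave 799 to 867 rising and 1234 to 1367 falling. With the replicate number as a block 4 factor genes rose, 1 fell, and over all genes 972 rose and 1428 fell; no call of the 10 genes changed. Deviations of same-numbered libraries correlated at -0.013, 0.0225 and 0.0185, and those of the other pairs at -0.031 to 0.0121. With 3 libraries per group these values cannot settle whether the numbers pair the samples. Egr2 and Egr3 changed sign, both at low counts and never called. With libraries left out Egr2 ranged from -0.23 to 0.36, at -0.11 without vehicle replicate 3 and -0.23 without uridine replicate 1, and Egr3 at 0.15 and 0.014 without vehicle replicates 1 and 3, 0.020 without uridine replicate 1 and 0.0023 with limma-voom. Egr2 and Egr3 gave no value with a mean of at least 50 counts, below which both lie. Low counts limit what can be said of Egr2 and Egr3, at 11 to 36 counts per library.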
